A study of Mus musculus with 4 samples.

Results

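PPARγ regions with their centre in a first intron of a protein-coding gene, away from transcription start sites (TSSs), were described in alveolar macrophages (AMs) of the mouse. They comprised 2812 of the 20233 consensus regions of the series (13.9%). A consensus region is a stretch of the mm10 genome where peaks of both ChIP libraries overlapped by at least 1 bp and were merged. It was counted here when its centre lay more than 3 kb from every curated RefSeq TSS, in the first intron of at least 1 protein-coding transcript and in no exon. Distances of regions to a TSS are taken from the centre, so a wide region can reach nearer to a TSS or into an exon. The library 1 summit met the same rule in 2772 of the 2812 regions (98.6%). The position alone chose these regions, so fold enrichment, width and sequence played no part in the choice beyond the authors' peak calls. Cells came from WT C57BL/6J mice of 9 weeks by bronchoalveolar lavage and cell sorting. PPARγ was immunoprecipitated by HT-ChIPmentation, in which a transposase tags the chromatin while it is bound to the beads. The 2 ChIP libraries (library 1 and library 2) form 1 group with no other condition, and the 2 input libraries entered only through the authors' peak calls. Nothing in the labels says that the libraries came from separate mice, so agreement between them may be technical. The peak lists give no read counts, and the depth behind each value is unknown from them. Library 1 had 83787 peaks and library 2 had 28535.

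PPARγ is a nuclear receptor that is activated by fatty acids and their derivatives and binds DNA as a heterodimer with RXR. Its classical site, the direct repeat DR1, has 2 copies of the hexamer AGGTCA or GGGTCA in the same direction with 1 base between them. In AMs, PPARγ is induced by GM-CSF and TGFβ and is required for the mature phenotype and for the handling of surfactant lipid. First introns lie next to the promoter and are known to hold many enhancers. In macrophages, enhancers are opened by PU.1 together with C/EBP, AP-1 and RUNX factors.

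The sequences below are 201-bp windows centred on the summit of the strongest library 1 peak, from the plus strand of the mm10 reference. The first 4 belong to regions among the 12 best-ranked ones and show what the strongest first-intron summits look like. Capitals mark matches, on either strand, to PU.1 (GAGGAAGT), CEBP (TTGCNNAA), AP-1 (TGACTCA), RUNX (TGTGGTT) and DR1 with up to 2 mismatches. Of the 12 best-ranked windows, 9 held at least 1 of these matches and 3 held none, of which Cd44 is shown. The Cd44 summit lay less than 3 kb from its TSS, although the centre of its region lay farther away. Over all 2812 first-intron windows, 1626 held none.
Abhd12, chr2:150895922-150896122: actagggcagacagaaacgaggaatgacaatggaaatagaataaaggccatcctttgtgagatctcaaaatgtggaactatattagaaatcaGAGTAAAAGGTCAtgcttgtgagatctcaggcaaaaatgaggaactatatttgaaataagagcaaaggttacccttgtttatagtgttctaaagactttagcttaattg
Blvra, chr2:127079142-127079342: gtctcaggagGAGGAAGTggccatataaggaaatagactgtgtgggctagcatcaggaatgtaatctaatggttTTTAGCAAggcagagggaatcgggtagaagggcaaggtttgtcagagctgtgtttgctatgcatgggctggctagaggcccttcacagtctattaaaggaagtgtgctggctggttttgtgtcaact
Cd44, chr2:102899273-102899473: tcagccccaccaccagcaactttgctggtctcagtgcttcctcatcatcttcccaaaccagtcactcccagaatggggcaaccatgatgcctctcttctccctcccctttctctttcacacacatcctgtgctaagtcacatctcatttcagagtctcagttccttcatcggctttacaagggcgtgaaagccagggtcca
Ski, chr4:155217516-155217716: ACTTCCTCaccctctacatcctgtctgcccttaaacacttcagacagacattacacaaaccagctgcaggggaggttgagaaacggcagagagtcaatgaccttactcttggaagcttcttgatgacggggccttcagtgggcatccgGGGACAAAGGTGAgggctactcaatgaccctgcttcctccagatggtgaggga

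The next windows are shown because they hold an exact DR1, which alone is in capitals and which 3 of the 2812 windows had. Both read on the minus strand as hexamers that follow each other with 1 base between.
Atg7, chr6:114659502-114659702: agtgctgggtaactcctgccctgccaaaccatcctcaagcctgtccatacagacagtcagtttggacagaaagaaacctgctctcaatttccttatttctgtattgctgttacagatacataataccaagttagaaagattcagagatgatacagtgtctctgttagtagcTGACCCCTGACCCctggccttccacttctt
Tmem131, chr1:36914613-36914813: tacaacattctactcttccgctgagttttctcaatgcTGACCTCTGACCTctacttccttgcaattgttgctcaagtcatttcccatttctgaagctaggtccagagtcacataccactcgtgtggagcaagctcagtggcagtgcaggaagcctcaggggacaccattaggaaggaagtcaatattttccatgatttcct

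The last window, chosen after its matches were seen, was the 1 first-intron window that held 4 of the 5 patterns together. From left to right its capitals are AP-1, DR1 with mismatches, PU.1 and CEBP.
Apba1, chr19:23780288-23780488: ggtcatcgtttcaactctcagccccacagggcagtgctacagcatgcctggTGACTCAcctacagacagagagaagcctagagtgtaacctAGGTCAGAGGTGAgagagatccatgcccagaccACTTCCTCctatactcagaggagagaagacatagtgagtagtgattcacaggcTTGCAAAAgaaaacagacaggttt

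Regions were ranked by the lower of their 2 percentiles of fold enrichment among all consensus regions, and fold enrichment is the authors' linear ratio of ChIP over input. The best-ranked region lay in Abhd12, which encodes a lipase of lysophosphatidylserine, at chr2:150894165-150899722 and 7.79 kb from its TSS. Its fold enrichment was 27.3 in library 1 and 23.2 in library 2, the highest of all first-intron regions in both libraries, and it took place 16 among the regions of the series. Hip1, encoding a clathrin adaptor, followed with 23.4-fold in library 1 and 16.8-fold in library 2 (chr5:135467586-135469016).

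Blvra, encoding biliverdin reductase, had 22.2-fold and 16.5-fold enrichment in library 1 and library 2 (chr2:127078555-127081777). Cd44, encoding the hyaluronan receptor, had 21.9-fold and 16.8-fold enrichment over a region of 9272 bp (chr2:102892975-102902246). The centre of this region lay 4.05 kb from the Cd44 TSS, but the region was wide enough to reach across that TSS. Ski, encoding a co-repressor of TGFβ signalling, had 21.9-fold and 18.5-fold enrichment, with the centre 3.89 kb from its TSS (chr4:155215077-155222217). The Ski region also reached past the first intron into the first exon. The regions of Blvra, Cd44 and Ski all stood far above the upper quartile of first-intron regions, which was 9.15-fold in library 1 and 6.75-fold in library 2. The other genes of the 12 best-ranked regions were the small GTPases Rab20 and Rab8b, Niban1, the sphingomyelin synthase gene Sgms1, the actin regulator gene Evl, the adhesion scaffold gene Nedd9 and the Wnt ligand gene Wnt5b. Their fold enrichment ranged from 19.5 to 22.2 in library 1 and from 14.8 to 17.4 in library 2. The Wnt5b region lay 56.0 kb inside the gene, and the nearest protein-coding TSS was that of Fbxl14.

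Across the 2812 regions, the median fold enrichment was 6.52 in library 1 and 5.35 in library 2, with interquartile ranges from 4.74 to 9.15 and from 4.52 to 6.75. The 2 libraries ranked the regions alike only in part, with a Spearman correlation across regions of 0.57, against 0.51 for later introns and 0.55 for intergenic regions. These correlations are descriptions over regions that share 2 libraries and carry no p. The summits of both libraries lay within 100 bp of each other in 52.7% of first-intron regions, and the median gap was 93 bp. Widths ran from 135 to 12587 bp with a median of 617 bp.

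**Figure D1:**
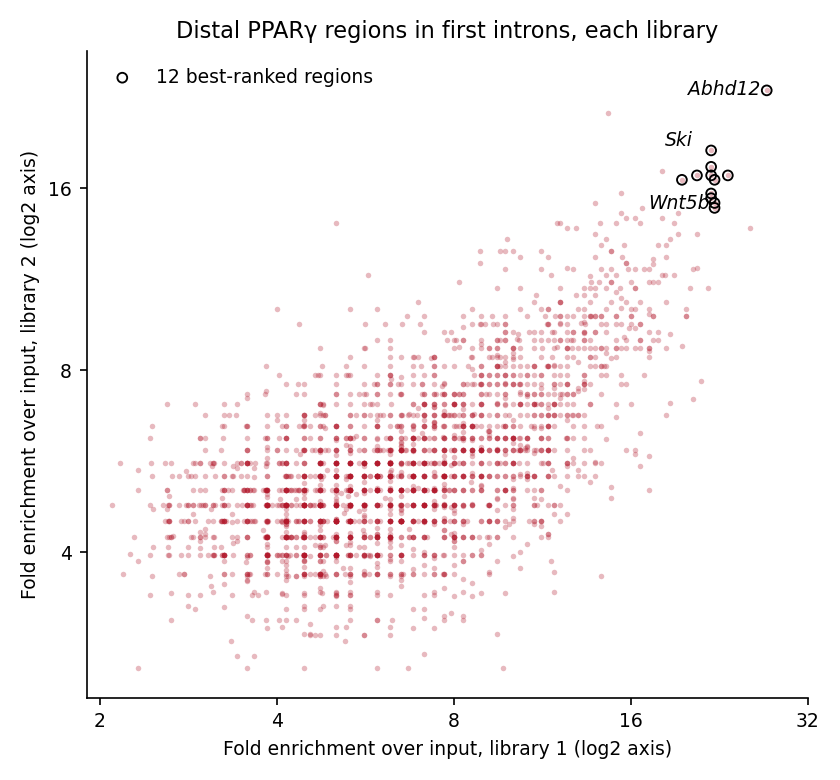
Each point is 1 of the 2812 distal first-intron regions, with fold enrichment over input in library 1 on the x axis and in library 2 on the y axis (both log2 axes). The 12 best-ranked regions are circled, and the Abhd12 region stands apart at 27.3-fold and 23.2-fold.

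First-intron regions were not found to be stronger or wider than other distal regions. Strong regions were those ranked above the cut for the top 25% of all consensus regions. Because ranks were tied at the cut, 23.7% of all consensus regions were strong. Strong regions made up 625 of the 2812 first-intron regions (22.2%) and 771 of the 3463 distal regions in later introns (22.3%). The odds ratio was 0.998 (95% interval 0.885 to 1.12, Fisher's exact test, two-sided, adjusted p = 0.976). Against intergenic distal regions, of which 1409 of 5480 were strong (25.7%), first-intron regions were less often strong, with an odds ratio of 0.826 (0.741 to 0.919, Fisher's exact test, adjusted p = 0.00122). In the same exact test the call was lost with library 1 alone (odds ratio 1.03, adjusted p = 0.302), with library 2 alone (0.904, adjusted p = 0.104) and with a reciprocal overlap of 50% between the libraries (0.847, adjusted p = 0.0569).

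Regions wider than the median of all consensus regions, 626 bp, were 49.5% in first introns, against 50.4% in later introns (odds ratio 0.963, 0.872 to 1.06, Fisher's exact test, adjusted p = 0.568) and 52.0% in intergenic sequence (0.903, 0.825 to 0.989, adjusted p = 0.0584). With library 1 alone the order turned, and the odds ratio of wide first-intron peaks was 1.13 against later introns (Fisher's exact test, adjusted p = 1.59e-06) and 1.17 against intergenic sequence (adjusted p = 5.47e-12). That of strong first-intron peaks against later introns was then 1.17 (Fisher's exact test, adjusted p = 3.81e-07). All tests here treat regions as the units, and the p-values, adjusted by Benjamini-Hochberg over 8 comparisons, say nothing about differences between mice. With 1 library alone or with reciprocal overlap, the adjustment covered the comparisons of strength and width only.

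Peaks of library 1 in first introns were found again in library 2 more often than distal peaks in later introns or intergenic sequence. Of the 11327 library 1 peaks with a distal first-intron summit, 3178 overlapped a library 2 peak (28.1%, 95% Wilson interval 27.2 to 28.9), against 3835 of 16731 in later introns (22.9%, 22.3 to 23.6) and 6055 of 24626 in intergenic sequence (24.6%, 24.1 to 25.1). The odds ratios were 1.31 against later introns (1.24 to 1.38, Fisher's exact test, adjusted p = 2.37e-21) and 1.196 against intergenic sequence (1.14 to 1.26, adjusted p = 1.42e-11). Within the weakest 25% of library 1 peaks the shares were 11.6% in first introns, 7.83% in later introns and 7.37% in intergenic sequence. Within the strongest 25% they were 65.6%, 61.8% and 64.3% in the same order. The gap to later introns thus held in weak and in strong peaks, whereas the gap to intergenic sequence was 1.07 as an odds ratio when only peaks of at least 5-fold were used (Fisher's exact test, adjusted p = 0.224).

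In the other direction no such difference was seen. Of 4095 library 2 peaks in first introns, 3312 overlapped a library 1 peak (80.9%), against 80.2% in later introns and 80.3% in intergenic sequence. The odds ratios were 1.04 (0.939 to 1.16) and 1.03 (0.941 to 1.14), with adjusted p = 0.568 for both in Fisher's exact test.

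First introns held more PPARγ regions per length of sequence than later introns or intergenic DNA. Distal first-intron sequence amounted to 217.6 Mb and held 12.9 regions per Mb, against 5.56 per Mb in 623.4 Mb of later introns and 3.76 per Mb in 1459.3 Mb of intergenic sequence. The ratio to later introns was 2.33 (exact 95% interval 2.21 to 2.45), and the ratio to intergenic sequence was 3.44 (3.29 to 3.60). These intervals cover counting error only, because regions cluster, and no test was made.

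Density fell with distance to the nearest TSS in all 3 kinds of sequence. From 3 to 10 kb, first introns held 19.7 regions per Mb, against 9.45 in later introns and 10.9 in intergenic sequence. From 10 to 30 kb they held 15.8 per Mb, against 7.79 and 7.82. The ratio to later introns was 2.08 (1.89 to 2.29) in the nearest range and 2.02 (1.86 to 2.2) in the next.

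Farther out the 2 kinds of intron came closer. From 30 to 100 kb the ratio was 1.33 (1.19 to 1.48), and beyond 100 kb, where 48 first-intron regions remained, it was 1.06 (0.767 to 1.44). The ratio to intergenic sequence stayed between 1.80 and 2.72 over the 4 ranges. When first and later introns of the same gene were compared, the combined ratio was 2.07 (1.95 to 2.21), with 914 genes denser in their first introns and 726 in their later introns. Within the same gene and distance range the ratio was 1.81 (1.67 to 1.97).

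**Figure D2:**
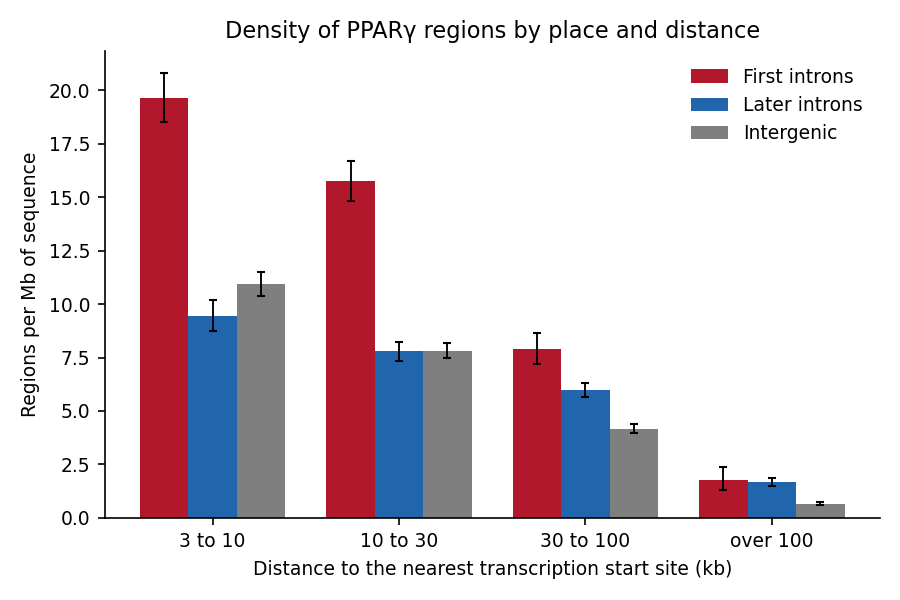
Bars give regions per Mb of distal sequence (y axis) in first introns, later introns and intergenic sequence, by distance to the nearest TSS in kb (x axis), with exact 95% intervals of the counts. First introns were densest from 3 to 30 kb, at 19.7 and 15.8 regions per Mb, and beyond 100 kb they held 1.79 regions per Mb against 1.68 in later introns.

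The median first-intron region lay 14.1 kb from the TSS of its host transcript, with an interquartile range from 6.65 to 28.8 kb, in an intron of 33.0 kb (median). The farthest lay 517 kb inside its gene. The regions were spread over 1142 different first introns. Of the 2812 regions, 435 (15.5%) also lay in a later intron of another protein-coding transcript and 11 lay in first introns of more than 1 gene. The host was also the gene with the nearest TSS for 2725 first-intron regions (96.9%), against 2587 of 3463 later-intron regions (74.7%). The position rule itself favours that order, because a first intron starts near its own TSS. Of all 2812 regions, 12 lay on the X chromosome, a count that was not compared with that of other regions.

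Summits in first introns carried the motifs of macrophage factors more often than sequence nearby. In each region, the 201-bp window at the summit was compared with an equally long flank centred 1 kb before it on the plus strand, by an exact McNemar test adjusted over 16 motifs. Among the 8 motifs that were more frequent at summits, PU.1 had the largest ratio of summits to flanks (4.71). It was found at 212 summits (7.54%) and in 45 flanks (1.60%, exact test, adjusted p = 2.24e-26). CEBP was found at 438 summits (15.6%) and in 250 flanks (8.89%, exact test, adjusted p = 1.37e-13).

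RUNX followed with 288 summits (10.2%) and 142 flanks (5.05%, exact test, adjusted p = 3.66e-13), and AP-1 with 223 summits (7.93%) and 111 flanks (3.95%, adjusted p = 5.57e-10). At least 1 of these 4 motifs stood at 1000 summits (35.6%), against 508 flanks (18.1%), and 2 or more stood at 152 summits (5.41%), against 39 flanks (1.39%). Most summits, 1812 of 2812, held none of these 4 patterns. IRF (GAANNGAAA) and KLF (GGGTGTGG) were also more frequent at summits, with 246 against 170 and 81 against 43 regions (exact test, adjusted p = 0.000419 and 0.00164). For KLF the direction turned with library 1 alone, where the ratio of summits to flanks was 0.990.

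The receptor's own site, as DR1 with up to 2 mismatches, had a ratio of summits to flanks of 1.41. That was below the ratios of PU.1 (4.71), CEBP (1.75), RUNX (2.03) and AP-1 (2.01), a difference that was not tested. Those patterns allow no mismatch, so the ratios are not like for like. DR1 with up to 2 mismatches in its 12 fixed positions stood at 285 summits (10.1%) and in 202 flanks (7.18%, exact test, adjusted p = 0.000311). The single hexamer AGGTCA stood at 455 summits (16.2%) and in 362 flanks (12.9%, exact test, adjusted p = 0.000876). The exact DR1 stood at 3 summits and in 4 flanks (p = 1, exact McNemar test). When pairs of hexamers with up to 1 mismatch were counted by the number of bases between them, the spacing of 1 base was the most frequent at summits, with 52 regions, against 30 in flanks. Spacings of 0, 2, 3, 4 and 5 bases were found at 27, 26, 9, 19 and 19 summits. In flanks these counts were 18, 12, 18, 11 and 11, so 1 base was the most frequent spacing there too. The spacings were not compared by a test.

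Of the windows with an exact DR1, those of Atg7, an autophagy enzyme gene, and Tmem131 stood at places 298 and 2447 among the first-intron regions.

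The remaining motifs did not pass the test at summits over flanks. They were the exact DR1, SP (GGGCGGG), E-box (CACGTG), MAF (TGCTGAC), STAT5 (TTCCNGGAA), CTCF, TEAD (GGAATGT) and GATA. The last of these, whose pattern was AGATAAG, stood at 87 summits and in 84 flanks, and TEAD at 74 summits and in 84 flanks.

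**Figure D3:**
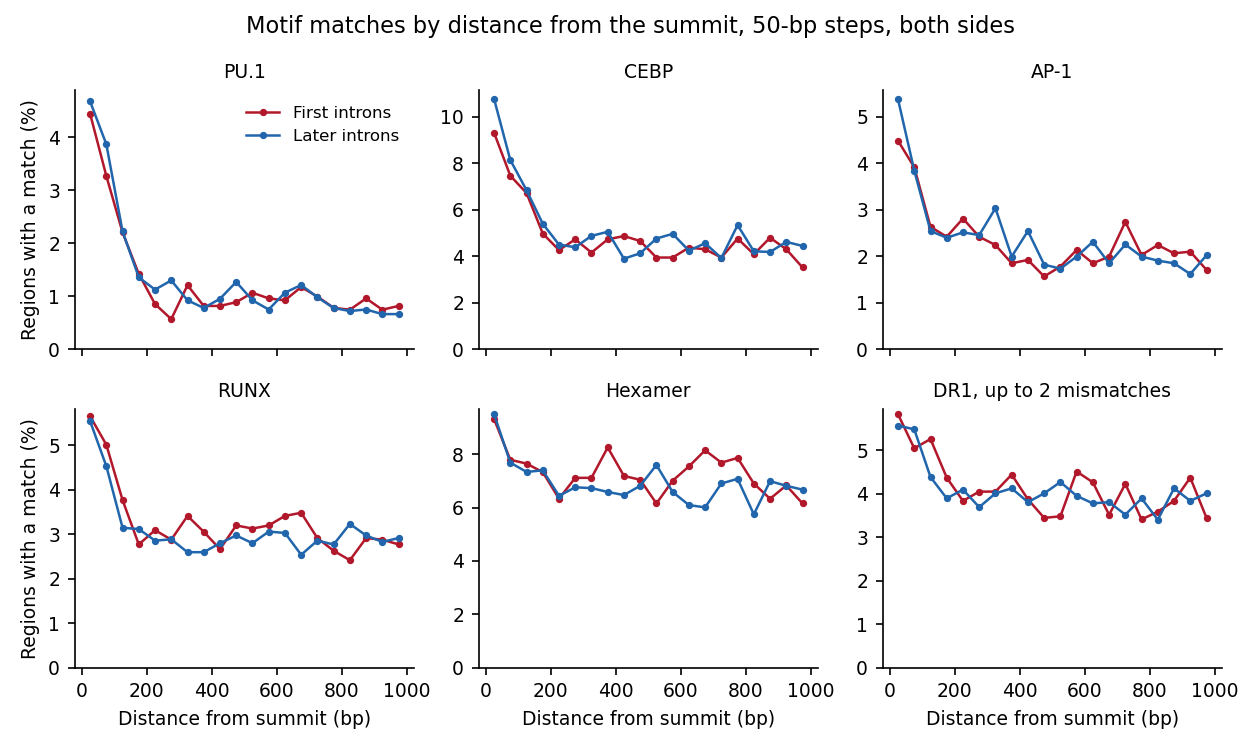
Each panel shows the percentage of regions with a motif match (y axis) by distance of the match from the summit in bp (x axis, 50-bp steps, both sides together), for first introns (red) and later introns (blue). PU.1 matches were found in 4.45% of first-intron regions in the innermost step and in 0.818% in the outermost, and the curves of both kinds of intron lie close together.

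With both libraries, no motif set first introns apart from later introns. None of the 16 motifs passed the adjusted threshold in Fisher's exact test over 32 comparisons, and 1 had an unadjusted p under 0.05 (KLF, 2.88% against 2.05%, p = 0.0387, adjusted p = 0.413). The odds ratios were 0.906 for PU.1 (0.753 to 1.09), 0.875 for CEBP (0.765 to 1.001), 0.879 for AP-1 (0.734 to 1.05), 1.05 for RUNX (0.891 to 1.24) and 1.003 for DR1 with up to 2 mismatches (0.851 to 1.18). Against intergenic regions, 1 motif passed: SP, the GC box, stood at 1.32% of first-intron summits and 2.43% of intergenic summits (odds ratio 0.536, 0.371 to 0.774, Fisher's exact test, adjusted p = 0.0179). That call was lost with q values of at most 0.001 (exact adjusted p = 0.117) and with windows of 50 bp either side (adjusted p = 0.796). Against later introns, CTCF was called with library 1 alone, at 0.176% of first-intron and 0.459% of later-intron summits. Its odds ratio was 0.383 (Fisher's exact test, adjusted p = 0.00047). The GC content of the summit windows had a median of 43.3% in first introns, 43.8% in later introns and 44.3% in intergenic sequence. Soft-masked repeats covered 13.5% of first-intron summits and 24.7% of their flanks.

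Among the first-intron regions themselves, the motifs of macrophage factors and DR1 were more frequent in the strongest than in the weakest, which is a description with no test. In the strongest 25% of them (703 regions, median 11.3-fold in library 1), PU.1 stood at 10.4% of summits (8.34 to 12.9), against 3.70% (2.54 to 5.36) in the weakest 25% (median 3.85-fold). CEBP stood at 21.6% against 12.2%, AP-1 at 10.4% against 6.69%, RUNX at 11.4% against 7.11%, and DR1 with up to 2 mismatches at 14.4% against 8.11%. Of the 16 motifs 4 had the lower share in the strongest regions, namely GATA (1.71% against 3.84%), E-box (2.84% against 3.56%), STAT5 (0.427% against 0.996%) and CTCF (0 against 2 regions). The strongest regions were also wider, with a median of 1273 bp against 376 bp, and had a higher GC content, with a median of 45.3% against 41.8%. The part of width and GC content in these shares was not tested.

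A first-intron region was present in 1064 protein-coding genes, which is 10.6% of the 10075 genes with distal first-intron sequence. Of these genes, 510 had a single region, 393 had 2 to 4, 125 had 5 to 9, and 36 had 10 or more. Genes with 5 or more regions held 1286 of the 2812 regions (45.7%). The share of genes with a region grew with the length of distal first-intron sequence, from 3.01% of genes with up to 5 kb to 24.9% of genes with 50 to 100 kb, and was 21.1% above 100 kb.

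The 12 genes with most regions held 15 to 21 each. Iqsec1, which encodes an activator of ARF GTPases, had 21 regions between 14.9 and 78.3 kb from its TSS, with fold enrichment from 3.43 to 21.0 in library 1. Lcp1, encoding the leukocyte actin-bundling protein L-plastin, had 20 regions, 7 of them strong, with up to 16.9-fold in library 1 and 11.8-fold in library 2. App, encoding the amyloid precursor protein, had 19 regions in a first intron of 52.8 kb. Of these, 12 had none of the 5 motifs shown in capitals above, as did 16 in Iqsec1 and 14 in Lcp1. Over all first-intron regions, 1626 of 2812 had none.

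Ubash3b, a phosphatase gene of immune receptor signalling, and Dipk1a had 18 regions each. Nedd9, Adipor2, Ptprc and Prkch had 17 each. Adipor2, encoding an adiponectin receptor, had 44.6 regions per 100 kb of such sequence, and its regions belonged to transcripts with 2 start sites and spanned 40.8 kb. In Nedd9, the fold enrichment in library 1 ran from 2.97 to 20.7 across the 17 regions, so that the same gene held 1 of the 12 best-ranked regions and some of the weakest. Ptprc, encoding the leukocyte phosphatase CD45, ranged from 2.64 to 15.5 in library 1.

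Sgms1 and Hpcal1 had 16 regions, and Nceh1, encoding the neutral cholesterol ester hydrolase of macrophages, had 15. The Nceh1 regions lay between 3.94 and 38.5 kb from the TSS and spanned 35.0 kb, the shortest stretch among the 12 genes. Of these regions 6 were strong, and the best had 19.8-fold enrichment in library 1 and 10.1-fold in library 2 (chr3:27212567-27215682). For Ptprc and Sgms1, every region lay also in a later intron of another curated transcript, so that these 2 genes had none when a first intron was required in every coding transcript. Prkch then had 1 region and Lcp1 had 11. When each library had to reach 5-fold, Iqsec1 had 8 regions, App 7 and Lcp1 12.

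**Figure D4:**
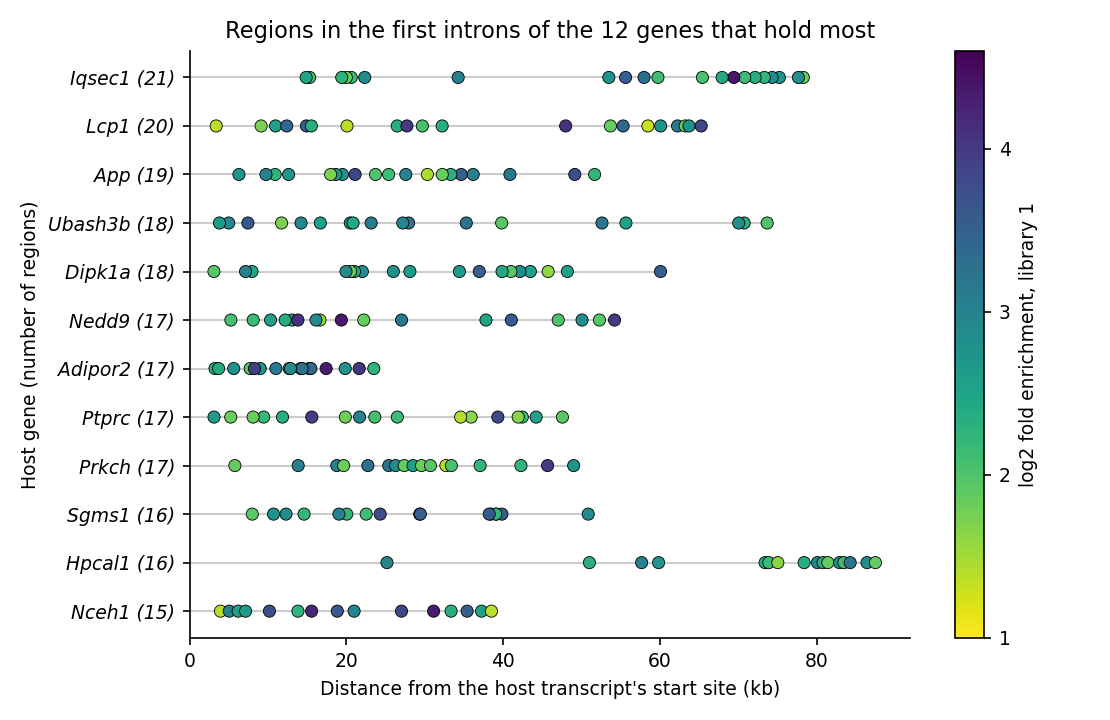
Points are first-intron regions of the 12 genes that held most, placed by distance from the start site of their host transcript in kb (x axis) and coloured by log2 fold enrichment in library 1, with the gene and its number of regions on the y axis. Lcp1, Ubash3b, Nedd9, Adipor2 and Sgms1 have hosts with 2 start sites each, so points of such a gene are measured from different places. Most regions of Hpcal1 lie beyond 70 kb, up to 87.5 kb.

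Genes of AM identity and of macrophage transcription had larger shares with a first-intron region than protein-coding genes as a whole, the background of 10.6%. The lists were chosen with earlier results of these data known and are described by their counts, with no test. Of the 34 macrophage transcription factor genes with distal first-intron sequence, 21 had a region (61.8%), and of the 24 such genes of the AM signature, 11 did (45.8%). The median length of distal first-intron sequence was 24.0 kb in the transcription factor list and 6.45 kb in the AM signature, against 7.15 kb over all genes, so the density is given as well. It was 71.9 regions per Mb for the transcription factors and 110.1 per Mb for the AM signature, against 12.7 per Mb over all genes.

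Pparg itself had 9 first-intron regions, between 4.51 and 16.2 kb from the start sites of its transcripts. The best had 8.67-fold enrichment in library 1 and 7.87-fold in library 2 (chr6:115374699-115376489), and 5 of the 9 also lay in a later intron of another transcript. Rxra, encoding its partner, had 3 regions, the best with 15.1-fold and 6.71-fold (chr2:27714200-27716924). Spi1, encoding PU.1, had 5 regions in 8.27 kb of sequence, with fold enrichment from 3.85 to 7.998 in library 1 and from 3.76 to 8.70 in library 2 (best region chr2:91089066-91090929). Of the Spi1 regions, 1 held PU.1, 2 CEBP and 1 DR1 with up to 2 mismatches at the summit. Zeb2, a transcriptional repressor gene that upholds macrophage identity, had 5 regions, all of them also in a later intron of another transcript. When each library had to reach 5-fold, Pparg and Rxra had 1 region each, and Spi1 and Zeb2 had 3 each.

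Klf13, Rara, Tfeb and Etv6 had the best-ranked regions of the transcription factor list. Klf13 had 13 regions with up to 14.8-fold enrichment in library 1 and 10.4-fold in library 2 at its best (chr7:63910695-63915681). Rara, encoding a retinoic acid receptor, had 4 regions, the best with 13.3-fold and 7.69-fold. Tfeb, the lysosomal transcription factor gene, had 9 regions and Etv6 had 7. Several factors had none: Ets2, Hif1a and Foxo1 had 1.01, 16.2 and 73.7 kb of distal first-intron sequence and no region in it. They were nearest to 4, 4 and 1 consensus regions. Cebpb and Bhlhe40 had no distal first-intron sequence at all, although they were the gene nearest to 33 and 28 consensus regions. Runx1 and Tcf7l2 had 5.196 and 10.1 kb of such sequence and no region in it, but were the nearest gene for 46 and 50 consensus regions elsewhere, so the count of 0 concerned their first introns only.

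In the AM signature, Cd9, a tetraspanin gene, had the best-ranked region, with 25.5-fold enrichment in library 1 and 13.7-fold in library 2, among 6 regions. Slc7a2 and Olr1, encoding an arginine transporter and a receptor of oxidised LDL, had 4 and 6 regions. Car4 and Ccl6 had only 1.63 and 0.282 kb of distal first-intron sequence and no region in it, but were nearest to 7 and 6 consensus regions. Siglecf, Itgax and Csf2ra, whose products are AM surface markers and a GM-CSF receptor chain, had no such sequence, and were nearest to 5, 5 and 7 consensus regions.

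PPAR target and lipid metabolism genes had a smaller share than the lists above and a larger one than all genes, which was not tested. Of 30 such genes with distal first-intron sequence, 8 had a region (26.7%), against 10.6% of all genes. The density was 48.1 regions per Mb, against 12.7 over all genes. The median length of such sequence was 8.67 kb, against 7.15 kb over all genes. Cd36, the fatty acid scavenger receptor gene, led with 7 regions, the best with 15.1-fold enrichment in library 1 and 8.98-fold in library 2 (chr5:17878805-17880907). Lpin1, Dgat1 and Elovl5, which act in triglyceride synthesis and fatty acid elongation, had 1, 1 and 3 regions. Acaa2, Acaca and Acadl had none in 4.91, 15.7 and 2.75 kb of such sequence. Plin2, encoding a lipid droplet protein, had no distal first-intron sequence and was nearest to 11 consensus regions.

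In the cholesterol list 10 of 23 genes had a region (43.5%), at 117 regions per Mb, with Nceh1, Olr1, Osbpl3 and Abcg1 at the top. The efflux transporter genes Abcg1 and Abca1 had 1 region each, with 11.6-fold and 10.7-fold enrichment in library 1 and 6.75-fold and 5.63-fold in library 2. Abca2, another transporter gene, had none in 0.396 kb of distal first-intron sequence.

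Of 27 genes of GM-CSF, TGFβ and Notch signalling, 14 had a region (51.9%, against 10.6% of all genes), at 35.4 per Mb (against 12.7 over all genes). The median length of distal first-intron sequence was 25.6 kb in this list. Among all genes with 20 to 50 kb of such sequence, 20.8% had a region. Ski had 8 regions, and Adam17, a protease gene of Notch and TNF processing, Tgfbr2 and Maml2 followed in rank. Tgfbr2, the type II TGFβ receptor gene, had 7 regions, the best with 12.4-fold and 8.70-fold enrichment (chr9:116136436-116137349). Tgfbr1 had 2 weak regions, of 4.17-fold and 3.83-fold in library 1, neither of which remained at a fold enrichment of at least 5. Notch2 had 6 regions with up to 7.70-fold in library 1 and 9.54-fold in library 2. Acvr1, Adam10 and Cish had none in 20.5, 21.3 and 0.487 kb of distal first-intron sequence.

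Genes of actin, adhesion and small GTPase control had regions in 34 of 48 (70.8%), the highest share among the 12 lists, at 66.6 per Mb and with a median of 39.7 kb of sequence. Among all genes with 20 to 50 kb of distal first-intron sequence the share was 20.8%. By density this list was not the highest, and phagocytosis and lysosome genes came first. Cd44, Evl, Cd9 and Lcp1 had the best-ranked ones. Actn4, Arhgap17 and Arhgef6 had none. Phagocytosis and lysosome genes had regions in 8 of 25 (32%), at 126 per Mb, led by Rab20, by Mertk, the efferocytosis receptor gene, with 12 regions, and by Ctsb.

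Of the lists of other cell types, those of lymphocytes and neurons lay below the background and the other 3 above it, in share and in density. Among genes of other macrophages and monocytes 2 of 9 had a region (22.2%, 58.4 per Mb), which were Cx3cr1 and P2ry12 with 2 regions each. Among adipocyte genes 1 of 6 did (16.7%, 107.3 per Mb), which was Adipor2 with its 17 regions. Lung epithelial genes had regions in 2 of 7 (28.6%, 35.0 per Mb), Pdpn and Lpcat1, and lymphocyte genes in 1 of 12 (8.33%, 4.93 per Mb), Ms4a1. These lists hold few genes with such sequence, and their Wilson intervals include the 10.6% of all genes. The 18 neuronal genes with distal first-intron sequence had no region in 4255 kb of it, a count of 0 that allows a share of up to 16.7% of genes (3 of 18), while the Wilson interval drawn for it reaches 17.6%. Among them, Cntnap2 had 614.7 kb of such sequence. The files hold no expression values, so the label of the cells as AMs was not checked further.

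**Figure D5:**
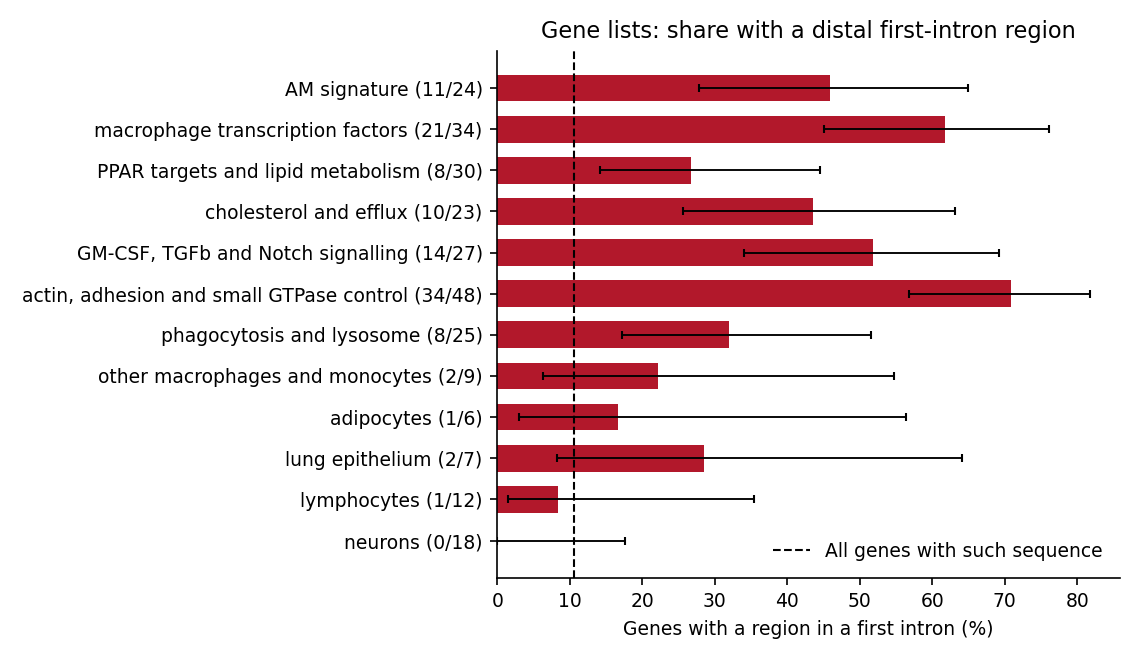
Bars give the percentage of genes with a distal first-intron region (x axis) in each list, with the count and the number of genes with such sequence in brackets, and lines give 95% Wilson intervals. The dashed line marks 10.6% of all 10075 genes; the list of actin, adhesion and small GTPase control reached 70.8% and the neuronal list 0.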

How the data were processed

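PPARγ ChIP libraries of WT AMs were analysed from the authors' peak lists. Per the study's methods and the labels, reads were demultiplexed (bcl2fastq 2.20.0.422, CASAVA), trimmed with cutadapt and aligned to mm10 by Bowtie2 and SAMtools, and the authors ran MACS3 on the libraries one by one, each with its own input (q of 0.05). The deposited lists give the fold enrichment (a linear ratio over input), −log10 of the p-value and q-value, a score (10 times −log10 q, without decimals) and the summit offset as another value. A list called at lower depth misses weak peaks, which limits the consensus to what both lists hold.

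Annotation and sequence were RefSeq GRCm38.p6. Introns and exons came from curated transcripts, intergenic sequence lies outside all of them, and the host is the gene whose first intron holds the centre. Base counts exclude chromosome Y. Tests were Fisher's exact test and the exact McNemar test, both two-sided, with Benjamini-Hochberg adjustment. Density intervals are exact conditional ones, shares have 95% Wilson intervals, and both cover counting error only. Ratios within genes are Mantel-Haenszel estimates, added after the pooled ratio was seen. Motifs are fixed letter patterns looked for on either strand up to 100 bp from the summit; a weight matrix would give other shares, and patterns can overlap (DR1 contains the hexamer). Code ran in Python 3.11.15 with numpy 2.4.6, pandas 2.3.3 and scipy 1.17.1, and was tested on simulated data.

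The members and the 12 gene lists (447 entries, all matched) were chosen with earlier results of these data known. Named genes are those of the 12 best-ranked regions, the 12 with most regions, up to 4 best-ranked and 3 alphabetically first region-free members of each list, the regions with an exact DR1, and 18 genes whatever their values. Alternatives were stricter peak thresholds, reciprocal overlap, each library alone, other positions, transcripts, distances, windows and flanks. The inputs are not analysed here, and a few items that this rule names are not reported here.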

Additional observations from a re-analysis of the deposited data

How the results depend on the processing

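The density ratio of first to later introns stayed above 1 under every alternative. It was 2.14 with predicted transcripts included, 2.05 beyond 10 kb from any TSS, and 1.94 to 2.35 with 1 library alone. Within genes it was 2.07, and within genes and distance bins 1.81. The number of first-intron regions was 1434 with fold enrichment of at least 5, 1414 with reciprocal overlap of 50%, 1643 beyond 10 kb, and 4095 to 11333 with 1 library alone. Genes with a region were 605 beyond 10 kb and 1238 to 2421 with 1 library alone.

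The odds ratio of strong regions against later introns, never called with both libraries, lay on the other side of 1 at q of at most 0.001 (1.002), with reciprocal overlap (1.01) and with predicted transcripts (1.0007), and was 1.04 to 1.17 with 1 library alone. Against intergenic regions it was 0.847 with reciprocal overlap (Fisher's exact test, adjusted p = 0.0569) and 0.904 to 1.03 with 1 library alone. For wide regions, 1 library alone gave 1.06 to 1.13 against later introns and 0.985 to 1.17 against intergenic regions.

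Library 2 peaks found in library 1 gave 0.967 against later introns and 0.976 against intergenic sequence at q of at most 0.001, and 0.959 against intergenic sequence at fold enrichment of at least 5. Library 1 peaks found in library 2 gave 1.07 there against intergenic sequence (Fisher's exact test, adjusted p = 0.224). The number of motifs that differed from later introns was 0 to 1 with 1 library alone, where CTCF was less frequent in first introns with library 1. The KLF ratio of summits to flanks was 0.990 with library 1 alone. The motifs more frequent at summits numbered 6 with windows of 50 bp or reciprocal overlap and 8 otherwise. The cause of these changes was not tested. No paired analysis was possible because the inputs that share replicate numbers with the ChIP libraries are not analysed here and there is 1 group. The peak lists hold no read counts, so the depth behind a weak region is unknown from them.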

Other observations

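Some short first introns were packed with PPARγ regions; these genes were chosen after their values were seen, as those with the most regions per length among genes with at least 3 kb of distal first-intron sequence. Fpr1, encoding the formyl peptide receptor of phagocytes, had 4 regions in 3.20 kb, and Rassf4 had 8 regions in 8.90 kb. Bcl2a1b had 6 regions in 5.31 kb, but it belongs to a family of near-identical copies, which makes its count uncertain. For comparison, Adipor2 had 44.6 regions per 100 kb and Iqsec1, the gene with most regions, had 19.8.

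Of the 2812 first-intron regions, 87 had the nearest protein-coding TSS in a gene other than their host. Both PU.1 and CEBP stood at 31 first-intron summits, and 99 held DR1 with up to 2 mismatches together with at least 1 of PU.1, CEBP, AP-1 and RUNX.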
